A study of Homo sapiens with 6 samples.

Results

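The estrogen-related receptors and the coregulators that work with them were followed in VCaP cells after SOX9 knockdown. The group held ESRRA, ESRRB and ESRRG, the coactivators PPARGC1A and PPARGC1B, and the corepressor NRIP1, with ESRRG put first. Members were every probe set whose gene symbol in the array annotation was exactly one of these 6 genes, which gave 15 of 54675 probe sets. ESRRA and NRIP1 had 2 each, ESRRG 2, ESRRB 3, PPARGC1A 2 and PPARGC1B 4. VCaP is an established prostate cancer line with the TMPRSS2/ERG fusion, so one line served as the model. All cells were grown in DMEM with 10% FBS. The groups were VCaP cells with SOX9 siRNA A, VCaP cells with SOX9 siRNA B and VCaP cells with a non-targeting control siRNA, each collected 72 h after transient transfection. Total RNA was hybridised to Affymetrix U133 Plus 2.0 arrays, 2 per group and 6 in all, which the submitters describe as biological duplicates.

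The estrogen-related receptors are orphan nuclear receptors that bind DNA without a known natural hormone and depend on coactivators for their activity. The PGC1 proteins, encoded by PPARGC1A and PPARGC1B, are their principal coactivators, and NRIP1 (RIP140) recruits repressor complexes to many nuclear receptors. Together they control genes of mitochondrial biogenesis, the TCA cycle, respiration and fatty acid oxidation. In prostate cancer lines, forced expression of the protein encoded by ESRRG (ERRgamma) is known to restrain growth.

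A promoter window of ESRRG and that of ESRRA are shown because both receptors had lower signal in every SOX9 siRNA array. Each window runs from 250 bases before to 50 bases after a transcription start, taken from RefSeq on GRCh38.p14, and the arrays themselves carry no measurement of promoters. ESRRG lies on the minus strand of chromosome 1 (chr1:216503246-217137702) and has 8 such windows, while ESRRA lies on the plus strand of chromosome 11 (chr11:64305524-64316743) and has 1. Capitals mark AAGGTCA, the core sequence bound by estrogen-related receptors, and AACAAT, a core sequence bound by SOX proteins. Both were searched on both strands, and they do not overlap each other. Of the 8 ESRRG windows, the one printed was picked because it alone holds either sequence.
ESRRG, chr1:217076943-217077242, minus strand: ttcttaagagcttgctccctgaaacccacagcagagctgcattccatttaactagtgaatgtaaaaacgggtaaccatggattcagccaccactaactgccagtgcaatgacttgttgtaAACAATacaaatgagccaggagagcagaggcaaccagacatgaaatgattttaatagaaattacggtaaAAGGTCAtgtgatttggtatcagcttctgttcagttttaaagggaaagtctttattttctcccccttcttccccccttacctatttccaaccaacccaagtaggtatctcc
ESRRA, chr11:64305274-64305573, plus strand: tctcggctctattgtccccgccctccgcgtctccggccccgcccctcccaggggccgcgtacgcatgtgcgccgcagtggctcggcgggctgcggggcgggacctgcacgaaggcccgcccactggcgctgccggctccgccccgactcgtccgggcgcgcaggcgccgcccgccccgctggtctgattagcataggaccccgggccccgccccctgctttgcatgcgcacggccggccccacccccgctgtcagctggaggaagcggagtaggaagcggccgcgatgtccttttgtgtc
The ESRRG window holds AACAAT from position -130 and AAGGTCA from position -61 relative to the start, both on the sense strand. It was the only one of the members' 18 windows with AAGGTCA, and AACAAT was in 3 of them, 1 each of ESRRG, PPARGC1A and NRIP1. Among all 35116 windows 3.92% hold AAGGTCA, 10.1% hold AACAAT and 0.510% hold both. These shares are per window, and a gene with 8 windows has more chances of a match. The ESRRA window holds neither and has 75% G and C, against 41.7% in the ESRRG window. A match describes letters only, and which start VCaP cells use was not measured.

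SOX9, the targeted gene, had signals of 1107.9 and 672.6 with siRNA A and 609.3 and 333.5 with siRNA B, against 1469.3 and 1126.2 with control siRNA. All 4 knockdown arrays were below both controls. The log2 difference was -1.02 (SE 0.29), with limma adjusted p = 0.571, or 0.00141 once the replicate number entered the fit (the blocked fit). For siRNA A alone SOX9 differed by -0.57 (limma adjusted p = 1.00, blocked 0.544), and for siRNA B by -1.48 (limma adjusted p = 0.142, blocked 1.01e-05). The siRNA A minus siRNA B difference was 0.91 (limma adjusted p = 0.491, blocked 0.0352), so SOX9 was called lower in the blocked fit with siRNA B and not with siRNA A. The median signal per array was between 21.2 and 26.3 and replicates of a group correlated at 0.964 to 0.986. All 8 prostate epithelial markers on the array were above the filter level, with summed signals of 29858 to 35562 with siRNA A, 32730 to 35340 with siRNA B and 32519 to 35328 with control siRNA. Of 11 markers of other cell types on the array, 4 were above it (CHGA, COL1A1, SYP and PECAM1). The 11 summed to 447.1 to 504.1 with siRNA A, 541.3 to 639.4 with siRNA B and 570.9 to 687.9 with control siRNA. Their part in the results was not tested.

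ESRRG gave the lowest share of control signal among the members above the filter level with both siRNAs. Its values were known when it was put first, so they stand as a description without a test. Probe set 207981_s_at had signals of 91.8 and 18.4 with siRNA A and 51.5 and 12.6 with siRNA B, against 331.7 and 144.0 with control siRNA. All 4 knockdown arrays were below both controls, and the replicate 2 array of each siRNA was under the filter level of 22. The mean signal was 55.1 ± 51.9 with siRNA A and 32.05 ± 27.5 with siRNA B, against 238 ± 133 with control siRNA (SD, n = 2 each). These are 23.2% and 13.5% of the control mean. On the log2(signal + 16) scale, which understates changes of dim probe sets, the difference from control was -1.95 (SE 0.51) for siRNA A and -2.42 (SE 0.51) for siRNA B. Fewer cells with the transcript and less transcript per cell cannot be told apart in bulk RNA.

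Replicate 2 was dimmer than replicate 1 for this probe set in every group, including control. Replicate 2 minus replicate 1 on the log2 scale was -1.65 with siRNA A and -1.24 with siRNA B, against -1.12 with control siRNA. Set against the same-numbered control array, siRNA A differed by -1.69 in replicate 1 and -2.22 in replicate 2, and siRNA B by -2.36 and -2.48. On this probe set the distance to control was therefore close in both replicates for siRNA B. For siRNA A it was larger in replicate 2. Without replicate 2 of both siRNAs, but with both control arrays, the difference was -1.13 for siRNA A and -1.80 for siRNA B. The siRNA A minus siRNA B difference was 0.47 (SE 0.51), smaller than its own error.

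The other ESRRG probe set, 209966_x_at, was also low in all knockdown arrays. It had 58.2 and 17.9 with siRNA A and 45.4 and 40.1 with siRNA B, against 189.0 and 92.5 with control siRNA. The means were 38.05 ± 28.5 with siRNA A and 42.75 ± 3.75 with siRNA B, against 141 ± 68.2 with control siRNA (SD, n = 2 each), or 27.0% and 30.4% of control. The log2 difference was -1.57 (SE 0.38) for siRNA A and -1.35 (SE 0.38) for siRNA B. Without control replicate 1 the siRNA B difference was -0.89. Set against the same-numbered control array, siRNA B differed by -1.74 in replicate 1 and -0.95 in replicate 2, and siRNA A by -1.47 and -1.68. The probe sets therefore shared the direction, while siRNA B had the lower mean on one and siRNA A on the other. Of all 27280 probe sets tested, 10.9% had all 4 knockdown arrays below both controls, as did both ESRRG probe sets, and nothing is read from that count because ESRRG was chosen on these values.

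**Figure D1:**
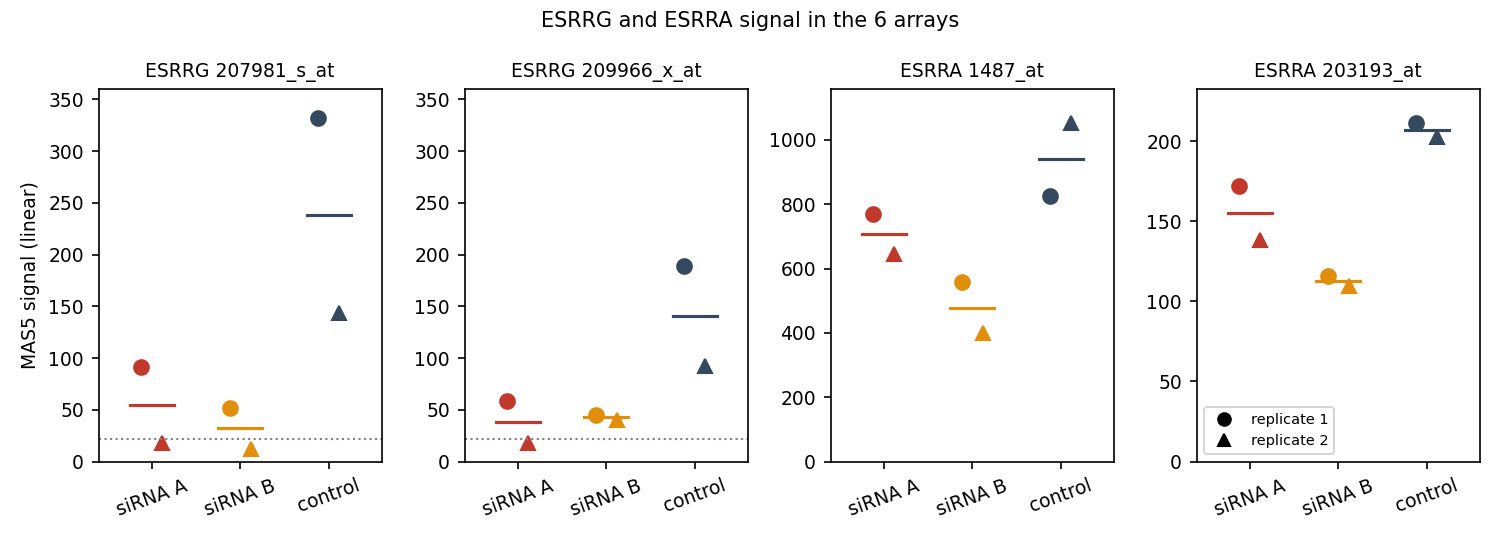
MAS5 signal on a linear scale of the ESRRG and ESRRA probe sets in each array with siRNA A, siRNA B and control siRNA. Circles are replicate 1 and triangles replicate 2, short lines are group means and the dotted line is the filter level. Both ESRRG probe sets have at most 91.8 in all 4 knockdown arrays, while their control arrays lie between 92.5 and 331.7.

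ESRRA encodes ERRalpha, the broadly expressed receptor of the family, which activates its own gene and many respiratory genes. Probe set 1487_at had signals of 770.6 and 646.0 with siRNA A and 557.0 and 399.5 with siRNA B, against 825.5 and 1053.0 with control siRNA. The siRNA A arrays lay just under the controls and the siRNA B arrays further down, with no overlap. For siRNA A the log2 difference was -0.39 (limma adjusted p = 1.00). For siRNA B it was -0.96 (SE 0.29), with a limma adjusted p of 0.240, or 0.0151 in the blocked fit. ESRRA was then the only one of the 7 tested member probe sets outside ESRRG to be called, where 5.60% of all probe sets were. Over 18 alternatives the difference ran from -1.19 (without siRNA B replicate 1) to -0.73 (without replicate 2 of both siRNAs). Of the alternatives that kept both siRNA B arrays, only the block called this probe set.

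The other ESRRA probe set, 203193_at, had 171.9 and 138.5 with siRNA A and 115.8 and 109.7 with siRNA B, against 211.4 and 202.7 with control siRNA. Its arrays lay in the same order of groups as those of 1487_at. The log2 difference was -0.39 for siRNA A and -0.79 (SE 0.27) for siRNA B (limma adjusted p = 0.307, or 0.0539 with the block). For both siRNAs together the 2 probe sets gave -0.68 (SE 0.25) and -0.59 (SE 0.23), with unadjusted p of 0.0157 and 0.0220 and limma adjusted p of 0.636 and 0.654. The siRNAs were not shown to differ from each other, at 0.56 for 1487_at (limma adjusted p = 0.722) and 0.40 for 203193_at (limma adjusted p = 0.837).

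ESRRB encodes ERRbeta, a receptor best known from embryonic stem cells and the inner ear, and its signal was low throughout. Probe set 223858_at, the one that passed the filter, had 10.1 and 20.3 with siRNA A and 27.1 and 58.4 with siRNA B, against 26.7 and 12.6 with control siRNA. The groups overlapped, and siRNA B replicate 2 alone stood well above the control arrays. The log2 difference was 0.26 for both siRNAs (limma adjusted p = 0.920). Between siRNA A and siRNA B it was -0.88 (SE 0.35), with an unadjusted p of 0.0257 and a limma adjusted p of 0.567. The probe set passed the filter through siRNA B, where its mean signal was 42.75, against 15.2 with siRNA A and 19.65 with control siRNA. Nothing is therefore read from its tests. Probe set 1556156_at had 8.2 and 3.8 with siRNA A and 1.5 and 7.9 with siRNA B, against 1.1 and 15.1 with control siRNA. Probe set 207726_at was at most 8.3 in any array. These levels do not allow a difference to be read for either.

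PPARGC1A encodes PGC1alpha, the inducible coactivator of oxidative metabolism, and neither of its probe sets passed the filter. Probe set 1569141_a_at had 9.2 and 3.7 with siRNA A and 2.1 and 6.0 with siRNA B, against 12.6 and 1.5 with control siRNA. Probe set 219195_at had 8.0 and 2.4 with siRNA A and 6.1 and 3.0 with siRNA B, against 2.4 and 2.1 with control siRNA. The replicates of one group differ as much as the groups do, so no difference was detectable at these signals.

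PPARGC1B encodes PGC1beta, the close relative of PGC1alpha, and was measured above the filter by 2 of its 4 probe sets. Probe set 232181_at had 113.1 and 134.1 with siRNA A and 82.8 and 124.2 with siRNA B, against 122.5 and 139.4 with control siRNA. Arrays of both siRNAs overlapped the controls, and the log2 difference for both siRNAs was -0.20 (limma adjusted p = 0.921). Probe set 1553639_a_at had 49.2 and 87.4 with siRNA A and 47.3 and 60.3 with siRNA B, against 52.5 and 74.8 with control siRNA. All groups overlapped there, at -0.06 (limma adjusted p = 0.982). Of the dim probe sets, 1563943_at had 14.4 and 5.1 with siRNA A and 7.9 and 10.4 with siRNA B, against 20.3 and 17.3 with control siRNA. The other, 1555282_a_at, was at most 5.1 in any array. Both had all 4 knockdown arrays below the controls, at signals under the filter level.

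NRIP1 encodes RIP140, a corepressor of estrogen receptors and estrogen-related receptors that restrains oxidative genes. It was clearly measured in VCaP cells. Probe set 202599_s_at had 1373.0 and 1339.2 with siRNA A and 1141.7 and 1378.8 with siRNA B, against 1522.5 and 1590.0 with control siRNA. All 4 knockdown arrays were below both controls by a small margin, and the log2 difference was -0.25 (limma adjusted p = 0.873). Probe set 202600_s_at had 588.0 and 705.6 with siRNA A and 534.6 and 755.3 with siRNA B, against 716.8 and 680.9 with control siRNA. These overlapped, at -0.12 (limma adjusted p = 0.951).

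Of the 15 member probe sets 9 passed the filter, 2 of them ESRRG, and the other 6 had signals between 1.1 and 20.3. None of the 7 tested outside ESRRG had a limma adjusted p below 0.05 for both siRNAs, where 0.00367% of all probe sets did. None did for siRNA A (0.00733% of all), for siRNA B (0.0623%) or between the siRNAs (0.0477%). At an unadjusted p below 0.05 there were 2 for both siRNAs, both of ESRRA, where 6.91% of all probe sets passed. There were 0 for siRNA A (3.86% of all), the 2 of ESRRA for siRNA B (10.4% of all) and 1, of ESRRB, between the siRNAs (7.48% of all). Nothing is read from the ESRRB one, which passed the filter through siRNA B. All 4 knockdown arrays were below both controls for 3 of the 7, where 10.9% of all probe sets were. The 3 were both probe sets of ESRRA and 1 of NRIP1, so probe sets of the same gene are counted separately. The median log2 difference of all 7 for both siRNAs was -0.20, against -0.03 over all probe sets.

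**Figure D2:**
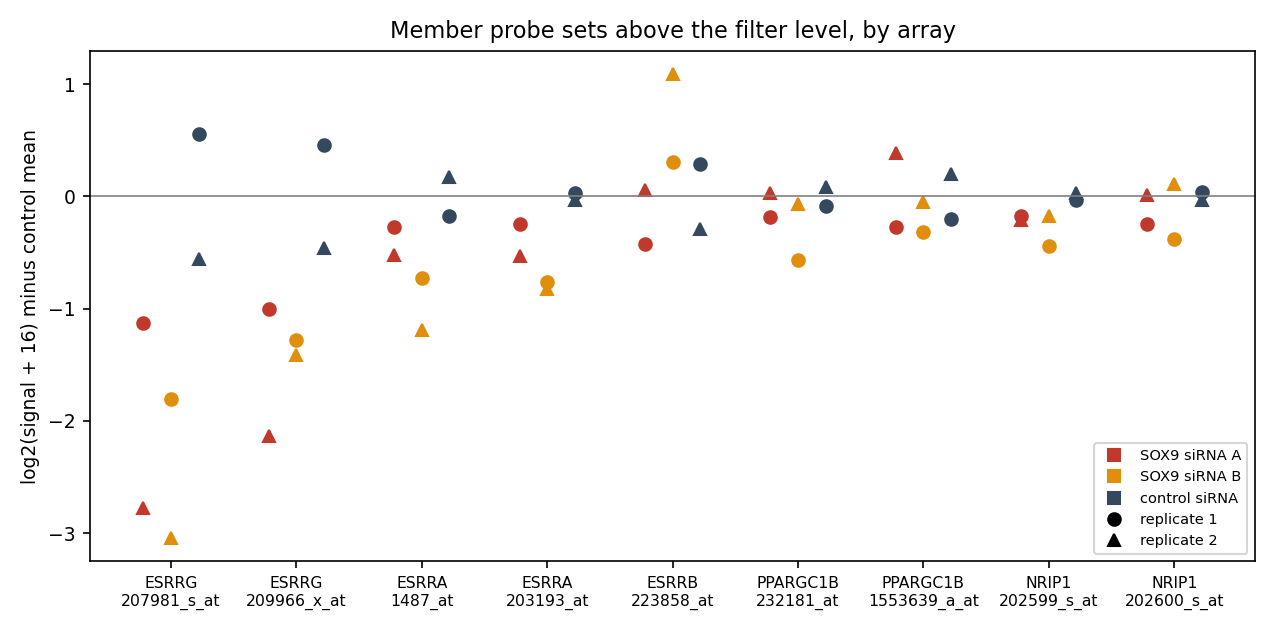
Log2(signal + 16) minus the control mean for the 9 member probe sets above the filter level, 1 point per array, with colour for group and shape for replicate. The ESRRG and ESRRA points of all 4 knockdown arrays lie below those of both controls, and the PPARGC1B points overlap them.

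The genes whose pattern over the 6 arrays was most like that of ESRRG probe set 207981_s_at were NPY6R, TNFSF15, LTF, TESC and FZD7. Likeness was the root mean square, over 6 arrays, of the difference between log2(signal + 16) values each centred on its control mean, searched over 12420 genes. The distances were 0.403 for NPY6R, 0.426 for TNFSF15, 0.437 for LTF, 0.555 for TESC and 0.578 for FZD7, where the median over all genes searched was 1.93. The other ESRRG probe set was at 0.751, further away than these 5 genes. They were picked for this likeness, and no test is given.

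NPY6R, a neuropeptide Y receptor gene regarded as a pseudogene in humans, had 288.7 and 141.1 with siRNA A and 203.2 and 78.2 with siRNA B, against 814.9 and 850.3 with control siRNA. TNFSF15, a cytokine of the TNF superfamily, had 476.6 and 108.7 with siRNA A and 190.6 and 83.6 with siRNA B, against 846.8 and 427.2 with control siRNA. As with ESRRG, replicate 2 was the dimmer array in every group for TNFSF15, whereas for NPY6R that held with the siRNAs only. LTF, the iron-binding lactotransferrin, had 80.7 and 1.6 with siRNA A and 56.0 and 4.1 with siRNA B, against 157.3 and 123.4 with control siRNA. TESC, a calcium-binding protein, had 410.0 and 229.2 with siRNA A and 257.8 and 119.7 with siRNA B, against 846.5 and 755.5 with control siRNA. FZD7, a Wnt receptor, had 74.8 and 34.7 with siRNA A and 41.5 and 19.6 with siRNA B, against 161.9 and 201.5 with control siRNA. Every knockdown array was below both controls in NPY6R, LTF, TESC and FZD7, while TNFSF15 with siRNA A replicate 1 stood above control replicate 2. In all 5 genes each siRNA's replicate 2 array was below its replicate 1 array.

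**Figure D3:**
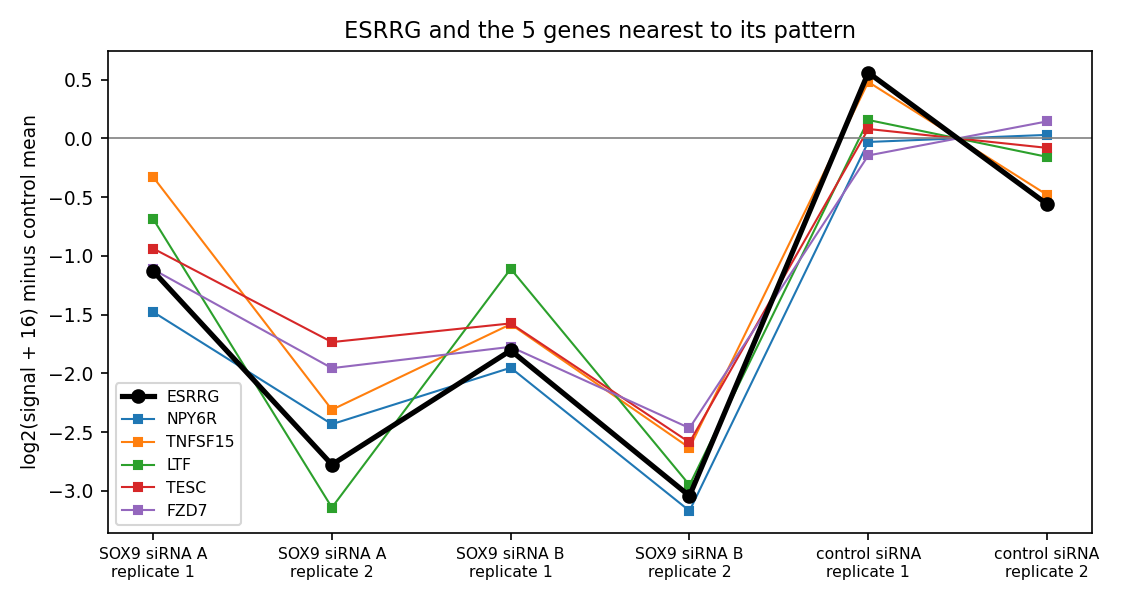
Log2(signal + 16) minus the control mean in the 6 arrays for ESRRG probe set 207981_s_at and the 5 nearest genes. All lines lie below 0 in the 4 knockdown arrays, with replicate 2 lower than replicate 1 for each siRNA.

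Genes that the receptors and coactivators act on were read through lists that also held the receptors and coactivators themselves, 218 genes in all. Of these 176 were tested, each by its brightest probe set, and ESRRG was left out. None was called for both siRNAs (limma adjusted p below 0.05), where 0.00805% of 12420 genes were. None was called for siRNA A (0.0161% of all), siRNA B (0.113%) or between the siRNAs (0.0564%). With the replicate block, 4 were called for both siRNAs (3.61% of all genes), 3 for siRNA A (1.84%), 11 for siRNA B, ESRRA among them (6.27%), and 3 between the siRNAs (3.04%). The 3 for siRNA A include ESR1, which passed the filter through the other groups, so nothing is read from its call.

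ERR target genes, known direct targets of the receptors, showed no common direction. Of 35 listed and 29 on the array 20 were tested, with 9 higher and 11 lower for both siRNAs and a median log2 difference of -0.01, against -0.04 over all genes. The share higher over all genes was 44.8%. At an unadjusted p below 0.05, 1 was higher and 3 were lower, ESRRA among them, so 4 of 20 passed, where 7.79% of all genes did. All 4 knockdown arrays were below both controls for 4 of the 20, where 11.8% of all genes were.

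TFF1, a secreted trefoil peptide, was the higher one. It had 143.0 and 135.0 with siRNA A and 153.2 and 279.8 with siRNA B, against 73.0 and 113.6 with control siRNA, and differed by 0.79 (limma adjusted p = 0.625, or 0.0263 with the block). VEGFA, the angiogenic growth factor, had 1848.6 and 400.8 with siRNA A and 1390.0 and 245.6 with siRNA B, against 1874.5 and 1733.8 with control siRNA. The replicate 2 array of each siRNA was low and siRNA A replicate 1 stood at the control level. The VEGFA difference was -1.31 (limma adjusted p = 0.705, or 3.70e-06 with the block). The block assumes the same replicate shift in every group, whereas here it was large with the siRNAs only. The blocked p-value can therefore be too small, and no effect is read from it. SOD2, the mitochondrial superoxide dismutase, had 116.1 and 72.5 with siRNA A and 68.7 and 75.8 with siRNA B, against 118.3 and 159.4 with control siRNA. It was below both controls in all 4 knockdown arrays, at -0.65 (limma adjusted p = 0.647), and was called for siRNA B with the block (adjusted p = 0.0465).

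Fatty acid oxidation genes were split with siRNA A and mostly higher with siRNA B. Of 20 tested, 9 were higher and 11 lower with siRNA A (median -0.09), where 43.1% of all genes were higher (median -0.05). With siRNA B 15 were higher and 5 lower (median 0.26), where 47.6% of all genes were higher (median -0.02). Between the siRNAs 17 of 20 were lower with siRNA A (median -0.32), where 54.5% of all genes were lower (median -0.03). The trimmed mean signal (2% cut at each end) was 143.6 in siRNA B replicate 1 and 190.0 in replicate 2, the highest of all arrays. The part of this difference in brightness was not tested. SLC25A20, the mitochondrial carnitine-acylcarnitine carrier, had 147.2 and 201.6 with siRNA A and 254.6 and 437.8 with siRNA B, against 138.1 and 145.8 with control siRNA. Both siRNA B arrays stood above all others, at 1.15 over control (limma adjusted p = 0.196, or 0.00164 with the block). CPT1A, the rate-limiting carnitine palmitoyltransferase, had 731.4 and 403.6 with siRNA A and 1060.2 and 1192.6 with siRNA B, against 835.4 and 576.4 with control siRNA. Its siRNA A minus siRNA B difference was -1.03 (limma adjusted p = 0.359, or 0.0124 with the block). ACADL, an acyl-CoA dehydrogenase, had 38.8 and 29.2 with siRNA A and 49 and 127 with siRNA B, against 30.7 and 46.1 with control siRNA. Only siRNA B replicate 2 stood well above the controls. Between the siRNAs ACADL differed by -0.95 (limma adjusted p = 0.496, or 0.0318 with the block). For siRNA B the difference was 0.84 (limma adjusted p = 0.424, or 0.0490 with the block). CPT1A and ACADL were chosen after their values were seen.

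HADHB, a subunit of the mitochondrial trifunctional protein, had 3224.5 and 3246.4 with siRNA A and 3002.5 and 3894.0 with siRNA B, against 2048.0 and 2723.5 with control siRNA. It was above both controls in all 4 knockdown arrays, at 0.49 (limma adjusted p = 0.657). ACSL1, which activates long-chain fatty acids, differed by 0.45 (limma adjusted p = 0.715). ACAA2, the last enzyme of the cycle, differed by -0.38 (limma adjusted p = 0.815).

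TCA cycle genes split into 12 higher and 10 lower of 22 tested for both siRNAs, with a median of 0.07. Over all genes 44.8% were higher, with a median of -0.04. PDK1, a kinase that inhibits pyruvate dehydrogenase, had 1781.0 and 452.3 with siRNA A and 1406.7 and 446.0 with siRNA B, against 1562.4 and 1538.2 with control siRNA. As for VEGFA, the low values were those of replicate 2 of each siRNA. The PDK1 difference was -0.86 (limma adjusted p = 0.762, or 0.00982 with the block). PDK3, a related kinase, had 684.2 and 289.5 with siRNA A and 418.4 and 188.1 with siRNA B, against 647.3 and 575.9 with control siRNA. PDK3 was called for siRNA B with the block, at -1.07 (limma adjusted p = 0.369, or 0.00564 with the block). The limit given for VEGFA holds for the blocked p-values of PDK1 and PDK3. SDHC, a subunit of succinate dehydrogenase, differed by -0.48 for both siRNAs (limma adjusted p = 0.751).

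Respiratory chain subunits had 17 higher and 23 lower of 40 tested for both siRNAs, with a median of -0.03. Over all genes 44.8% were higher and 55.2% lower, with a median of -0.04. COX8A, a cytochrome c oxidase subunit, had 9426.6 and 9735.1 with siRNA A and 7131.7 and 6748.4 with siRNA B, against 9922.0 and 10015.8 with control siRNA. Only the siRNA B arrays stood well below the controls, at -0.52 (limma adjusted p = 0.219, or 0.0409 with the block). CYC1, the cytochrome c1 subunit, differed by -0.40 for both siRNAs (limma adjusted p = 0.762). Mitochondrial biogenesis factors had 4 higher and 10 lower of 14 tested, with a median of -0.11, beside the same shares over all genes. None of the 14 had an unadjusted p below 0.05 for both siRNAs, where 7.79% of all genes did. TOP1MT, the mitochondrial topoisomerase, came nearest at -0.52 (limma adjusted p = 0.732). POLRMT, the mitochondrial RNA polymerase, differed by 0.23 (limma adjusted p = 0.906).

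**Figure D4:**
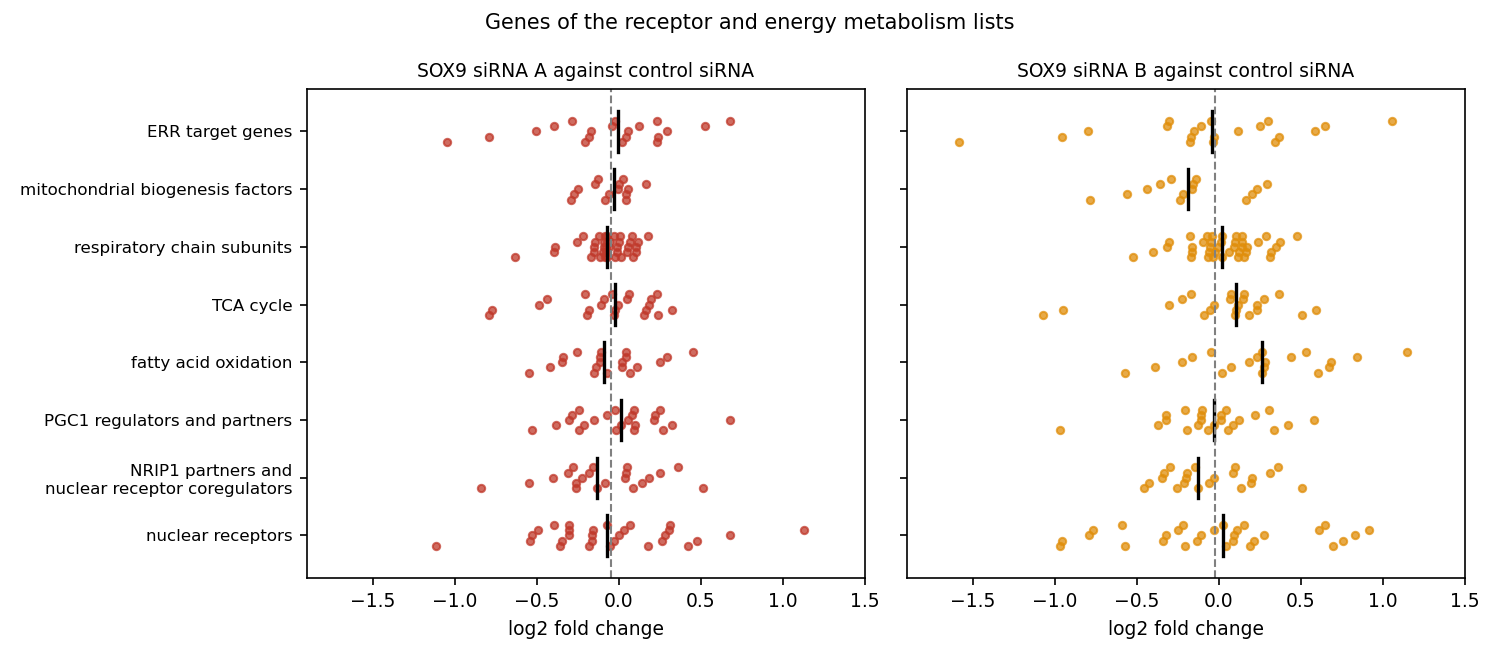
Log2 fold change of each tested gene in the receptor and energy metabolism lists, with siRNA A and siRNA B each set against control siRNA. Each point is 1 gene, solid lines are list medians and the dashed line is the median of all genes. The fatty acid oxidation genes have their median at -0.09 for siRNA A and at 0.26 for siRNA B. Those of the respiratory chain are -0.07 for siRNA A and 0.02 for siRNA B.

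Regulators and partners of the PGC1 proteins had 10 higher and 13 lower of 23 tested for both siRNAs, with a median of -0.05. Over all genes 44.8% were higher, with a median of -0.04. PPARD, a fatty acid receptor that PGC1 proteins coactivate, had 251.0 and 200.6 with siRNA A and 133.7 and 137.1 with siRNA B, against 281.3 and 279.3 with control siRNA. All knockdown arrays were below both controls, and those of siRNA B were about level with each other. The difference for siRNA B was -0.97 (limma adjusted p = 0.211, or 0.0132 with the block). ATF2, a transcription factor that drives PPARGC1A, differed by 0.37 for both siRNAs (limma adjusted p = 0.794). PPRC1, the remaining gene of the PGC1 coactivator list, differed by -0.15 (limma adjusted p = 0.946).

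NRIP1 partners and other nuclear receptor coregulators had 8 higher and 13 lower of 21 tested for both siRNAs, with a median of -0.12. Over all genes 44.8% were higher, with a median of -0.04. PNRC1, a coactivator of nuclear receptors, had 975.2 and 644.4 with siRNA A and 1298.3 and 969.4 with siRNA B, against 1369.0 and 1492.2 with control siRNA. It was below both controls in all 4 knockdown arrays, at -0.59 (limma adjusted p = 0.679). HDAC2, a histone deacetylase of corepressor complexes, was below both controls too, at -0.31 (limma adjusted p = 0.777). NCOA2, a steroid receptor coactivator, differed by 0.43 (limma adjusted p = 0.766).

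Among nuclear receptors other than ESRRG, 13 were higher and 16 lower of 29 tested for both siRNAs, where 44.8% of all genes were higher. The receptors had a median of -0.04, that of all genes too, and a range of -0.68 to 0.95. ESRRA was the lowest of them for both siRNAs together, but not with either siRNA alone. All 4 knockdown arrays were below both controls for 6 of the 29, ESRRA included, where 11.8% of all genes were. NR2F1, the orphan receptor COUP-TFI, had 34.9 and 50.1 with siRNA A and 57.2 and 74.8 with siRNA B, against 18.4 and 38.4 with control siRNA. It was called for siRNA B with the block, at 0.91 (adjusted p = 0.0303). RARA, a retinoic acid receptor, differed by -0.63 for both siRNAs (limma adjusted p = 0.682). The remaining receptors called with the block, chosen after their values were seen, were RORB and ESR1. RORB had 205.2 and 885.1 with siRNA A and 170.5 and 620.3 with siRNA B, against 157.3 and 223.1 with control siRNA, with the high values in replicate 2 of each siRNA. For both siRNAs the RORB limma adjusted p was 0.762, or 0.00627 with the block, and the limit given for VEGFA holds here too. ESR1, estrogen receptor alpha, had 4 and 14 with siRNA A and 29.9 and 28.9 with siRNA B, against 27.4 and 48.5 with control siRNA. Both siRNA A arrays were under the filter level, and the probe set passed the filter through its siRNA B and control arrays. Nothing is therefore read from its tests, although it is counted among the blocked calls for siRNA A.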

How the data were processed

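The deposited table gives a linear intensity for each probe set, made with MAS5 per the submitters' processing notes. No version or scaling target is given in the sources used here. The arrays do not share a trimmed mean signal (2% cut at each end). It ran from 143.6 in siRNA B replicate 1 to 190.0 in siRNA B replicate 2. Gene symbols came from GEO's platform annotation of the array: 41097 probe sets had 1 symbol, 1801 several and 11777 none. The authors' scaling was kept and values were taken as log2(signal + 16). The steps left out 62 control probe sets and set a filter at the median of all probe sets (5.25, a signal of 22), which left 27280. limma 3.58.1 in R 4.3.3 was fitted to the 3 groups over 6 arrays (3 residual degrees of freedom, eBayes with trend), and p-values were adjusted by Benjamini-Hochberg over all 27280. For lists, the brightest probe set on average stood for its gene. List symbols numbered 239, of which 214 had a probe set of their own.

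The members and lists were chosen with earlier results of these data known. Named genes were the members, SOX9, up to 4 genes per list with the smallest unadjusted p for both siRNAs, and the 5 genes nearest to ESRRG in pattern. All comparisons with control share the same 2 control arrays. Same-numbered arrays deviated from their group means with correlations of 0.590 (siRNA A and siRNA B), 0.147 (siRNA A and control) and 0.146 (siRNA B and control), all above 0.1. On that ground the blocked fit treats equal numbers as pairs. The labels do not say what a number marks. The blocked fit has 2 residual degrees of freedom and took its spread from limma's trend alone, so its p-values can be too small. The number of arrays limits the precision. Alternatives were other offsets, scalings, filters and eBayes settings, the block, and arrays left out.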

Additional observations from a re-analysis of the deposited data

How the results depend on the processing

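For ESRRG probe set 207981_s_at the difference from control stayed negative in all 18 alternatives. It ran from -2.75 (without control replicate 2) to -1.47 (without replicate 2 of both siRNAs) for both siRNAs. For 209966_x_at, over 17 alternatives, it ran from -1.92 to -0.95, the last with an offset of 64. The siRNA A minus siRNA B difference of ESRRG changed sign when arrays were left out. As reported it was 0.47 for 207981_s_at and -0.23 for 209966_x_at. With arrays left out in turn it ran from -0.35 to 1.29 and from -0.79 to 0.34. For 207981_s_at it was -0.35 without siRNA A replicate 1 and -0.15 without siRNA B replicate 2. For 209966_x_at it was 0.34 without siRNA A replicate 2 and 0.27 without replicate 2 of both siRNAs. The cause was not tested.

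With the replicate block, 1 member probe set outside ESRRG was called for siRNA B, against 0 without it. The blocked counts of pathway genes were 4 for both siRNAs, 3 for siRNA A, 11 for siRNA B and 3 between the siRNAs, against 0 each without it. With arrays left out in turn, the siRNA B count of members ran from 0 to 1 and that of pathway genes from 0 to 19, the highest both without siRNA B replicate 1, where 2076 of 27280 probe sets were called. The pathway count between the siRNAs ran from 0 to 3, and for siRNA B it was 1 without replicate 2 of both siRNAs, where 667 probe sets were called. Over all alternatives, probe sets called in the whole table ran from 0 to 821 for both siRNAs (1 as reported), 0 to 356 for siRNA A (2), 0 to 2076 for siRNA B (17) and 0 to 710 between the siRNAs (13). With 2 arrays per group and signals under 22 for 6 member probe sets, small differences were not detectable.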
